A study of Mus musculus with 7 samples.

Results

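The second of 2 hairpins against Snai1, named sh2, was compared with a non-silencing control hairpin in HM-1 cells, a mouse ovarian cancer line. The comparison was chosen by the labels alone: the 2 arrays labelled sh2 were set against the 3 arrays labelled control, 5 of the 7 arrays of the series, and the 2 arrays of the other Snai1 hairpin, sh1, stayed in the fit and are given beside the values. Both the control and the sh1 and sh2 cells had been transduced with GIPZ lentiviral particles and grown as stable lines in MEMα with 10% fetal bovine serum, so the controls carry a vector and a hairpin too. The labels call the arrays of a group biological replicates, but nothing says that they came from separate transductions, so the p-values measure the spread between these arrays only, and their number limits the precision. Each array gave a log2 signal for 65770 transcript clusters, which are the array's groups of probes for 1 locus. Of these, 30481 carry exactly 1 gene symbol and stand for 30145 genes, 2168 carry several symbols, and 33121 carry none and are described apart.

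Snai1 encodes Snail, a zinc finger transcription factor that binds E-box sequences and represses epithelial genes such as Cdh1 during epithelial-mesenchymal transition, the change by which epithelial cells take on a mobile, mesenchymal form. NF-κB is a family of transcription factors held in the cytoplasm by IκB proteins. Once released, its members switch on chemokine and cytokine genes together with the genes of their own inhibitors. In tumors, CC chemokines such as CCL2 draw monocytes, and the CXC chemokines that bind the receptor CXCR2 draw neutrophils and other myeloid cells.

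The hairpins were designed against different stretches of the Snai1 transcript, shown here because the comparison rests on them. The position of these stretches in the genome was not analysed here. Each target has 19 bases, of which 16 are A or T and 3 are G or C.
sh1 target: agtttattgatattcaata
sh2 target: tggttaatttatatactaa

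The targeted gene was measured first. Snai1 had log2 signals of 6.61, 6.69 and 6.70 in control replicates 1 to 3 and of 6.69 and 6.77 in sh2 replicates 1 and 2, and the sh1 arrays had 6.80 and 6.55. The groups overlap, and the log2 difference of sh2 minus control was 0.06 (standard error 0.08, adjusted p = 0.785). All of these levels lie between the median, 4.96, and the 95th percentile, 8.10, of the 5222 negative control probe sets of the array, so the Snai1 signal does not separate the arrays labelled sh2 from the controls. The related genes Snai2 (means of 4.54 in the controls and 4.53 with sh2) and Snai3 (4.48 and 4.51) were under the negative control median. For this reason sh2 stands throughout for the arrays labelled sh2, and each direction rests on that label.

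Few transcript clusters passed the test on the arrays labelled sh2. With an adjusted p under 0.05 and more than a 2-fold difference, 91 clusters were lower (0.138% of those tested) and 222 were higher (0.338%) than in the controls. Among clusters with 1 symbol the balance was the other way, with 73 lower (0.239%) and 29 higher (0.0951%), which stand for 72 and 29 genes. Clusters without a symbol gave 14 lower (0.0423%) and 192 higher (0.58%), and those with several symbols gave 4 lower and 1 higher. The split depended on the scaling. After each array was centred on its negative controls, 290 clusters were lower and 87 higher, and for 1 symbol 215 were lower and 21 higher. At any fold, 314 clusters were lower (0.477%) and 532 higher (0.809%). Among those without a symbol 49 were lower (0.148%) and 323 higher (0.975%). With 1 symbol, 245 clusters were lower (0.804%) and 193 higher (0.633%), or 244 and 191 genes, and these shares are the background for the gene lists described here, over which the median log2 difference was -0.00. Of the genes past the 2-fold limit, 24 of the 72 lower and 17 of the 29 higher had both means above the 95th percentile of the negative controls, and for the others the size of the fold is less certain.

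**Figure D1:**
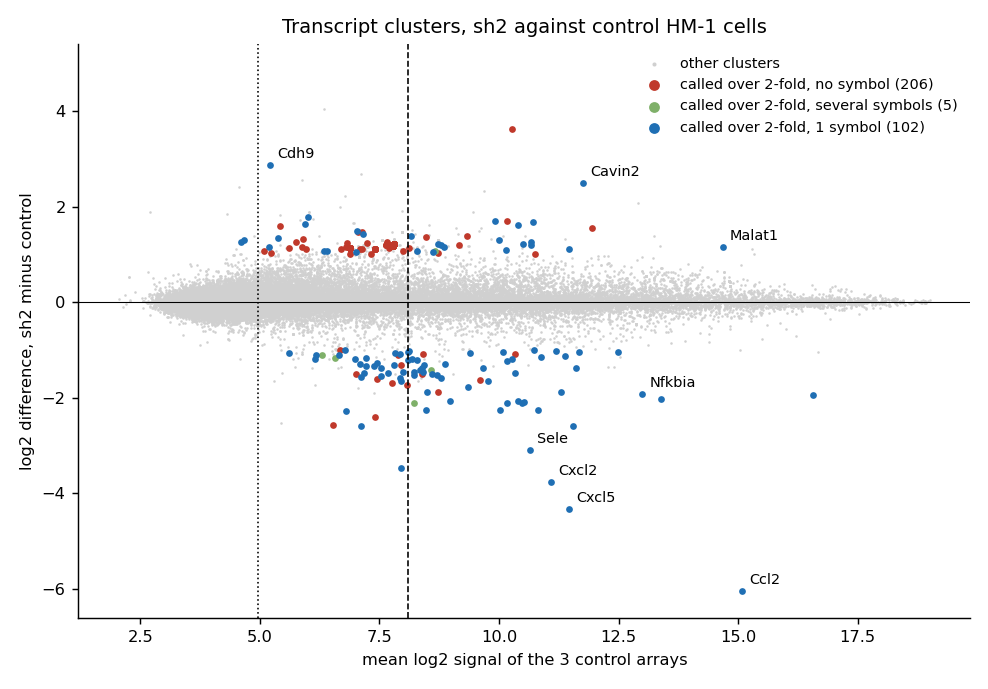
Log2 difference of sh2 minus control (vertical axis) against the mean log2 signal of the 3 control arrays (horizontal axis) for 65770 transcript clusters, with those past an adjusted p of 0.05 and 2-fold coloured by whether they carry 1 gene symbol (102), several (5) or none (206). The dotted and dashed lines mark the median, 4.96, and the 95th percentile, 8.10, of the negative controls, and many of the higher clusters without a symbol lie between these lines, some on top of each other.

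The calls rest on few arrays. All 102 calls with 1 symbol past 2-fold kept their sign when any 1 of the 7 arrays was left out. They passed the test less often then: 3 passed without control replicate 1, 4 without control replicate 2, 51 without control replicate 3, 7 without sh1 replicate 1, 7 without sh1 replicate 2, 81 without sh2 replicate 1 and 62 without sh2 replicate 2. Ccl2, Cxcl16 and 1700024B05Rik were the 3 that passed in every such fit. After centring on the negative controls all 73 lower and all 29 higher clusters still had an adjusted p under 0.05 and their direction, with no limit on the fold. That setting lowers sh2 against control in every cluster, and 50048 of the 65770 clusters were then lower at any fold and 926 higher. The kept calls of the 73 lower clusters therefore say little about how stable they are.

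Chemokine genes held the largest difference among the genes that passed. Ccl2, which encodes the monocyte attractant that binds CCR2, had log2 signals of 15.08, 15.26 and 14.91 in the controls and of 8.98 and 9.11 with sh2. Both sh2 arrays were far under every control, and the sh1 arrays, at 8.92 and 9.12, lay beside them. The log2 difference was -6.04 (standard error 0.13, adjusted p = 0.00318), which is a linear fold change of -66.0. Its neighbor in function Ccl7, another monocyte attractant, had 7.37, 7.15 and 6.82 in the controls and 4.51 and 4.54 with sh2. It fell by 2.59 in log2 signal (standard error 0.17, adjusted p = 0.0255), but with sh2 its mean was 4.52, below the median of the negative controls, which leaves the size of the fall uncertain. Of 19 CC chemokines, these 2 fell and 0 rose, and the median log2 difference of the list was 0.00. Ccl20, which draws cells with CCR6 and is named after its values were seen, had a log2 difference of -1.90 and did not pass (adjusted p = 0.0547).

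Of 6 CXCR2 ligands, 4 fell and 0 rose, with a median log2 difference of -1.70 for sh2 and -1.50 for sh1. Cxcl5 had log2 signals of 11.30, 12.01 and 11.06 in the controls and 7.38 and 6.87 with sh2. It fell by 4.33 in log2 signal (standard error 0.33, adjusted p = 0.030). Cxcl2 had 11.06, 11.47 and 10.71 in the controls and 7.37 and 7.28 with sh2, a log2 difference of -3.76 (standard error 0.24, adjusted p = 0.025). For both genes the sh2 arrays lay more than 3 log2 units under the lowest control. Cxcl3 had 16.53, 16.68 and 16.48 in the controls and 14.89 and 14.37 with sh2, and fell by 1.93 (standard error 0.18, adjusted p = 0.0362). Ppbp, a chemokine best known from platelets, had 8.04, 8.56 and 8.06 in the controls and 6.83 and 6.69 with sh2, and fell by 1.47 (standard error 0.18, adjusted p = 0.0495). The other members did not pass. Cxcl1 was under the negative control median on every array (means of 4.39 and 4.22), and Cxcl15 had 6.43, 6.84 and 5.92 in the controls and 7.85 and 6.92 with sh2, a log2 difference of 0.99 (standard error 0.40, adjusted p = 0.500). Of 10 other CXC and CX3C chemokines, Cxcl16 alone fell. This ligand of CXCR6 had 8.48, 8.39 and 8.39 in the controls and 6.94 and 6.97 with sh2, a log2 difference of -1.46 (standard error 0.03, adjusted p = 0.00389), with replicates that hardly differed within either group.

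Among the chemokine genes, Ccl2 and Cxcl16 passed without any 1 of the 7 arrays, at adjusted p up to 0.047 and 0.048. Ccl7, Cxcl5, Cxcl2, Cxcl3 and Ppbp lost their calls when control replicate 1, control replicate 2, sh1 replicate 1 or sh1 replicate 2 was left out, with an adjusted p between 0.070 and 0.164. Cxcl3 also did not pass without control replicate 3 (0.074), Cxcl5 without sh2 replicate 2 (0.052), and Ppbp without control replicate 3 (0.106), sh2 replicate 1 (0.073) or sh2 replicate 2 (0.127). On the sh1 arrays the log2 differences from control were -6.07 for Ccl2, -2.19 for Ccl7, -4.26 for Cxcl5, -3.59 for Cxcl2, -1.79 for Cxcl3, -1.20 for Ppbp and -1.47 for Cxcl16. The comparisons share the 3 controls. The direct difference of sh2 minus sh1 for Ccl2 was 0.02, with a 95% interval from -0.33 to 0.38.

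**Figure D2:**
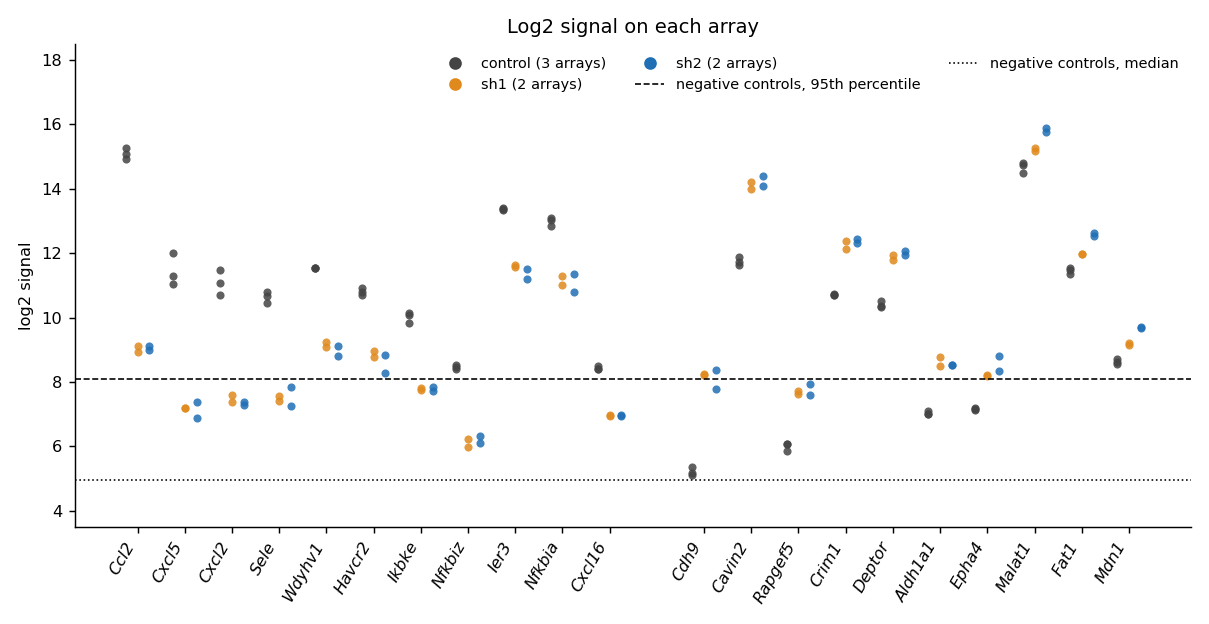
Log2 signal (vertical axis) on each of the 7 arrays (points: control black, sh1 orange, sh2 blue) for 11 genes lower and 10 genes higher on the arrays labelled sh2, with the median and the 95th percentile of the negative controls as dotted and dashed lines. For every gene shown both sh2 points lie outside the range of the 3 controls, and Ccl2, from about 15 to about 9, has the widest gap.

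The promoters of the genes that passed 2-fold were searched for the κB site, the sequence bound by NF-κB dimers. The search covered the 250 bases before the start in RefSeq's GRCm38.p6, read 5′ to 3′ in the direction of the gene only. Sites that match only on the opposite strand were not counted, so the κB shares are those of 1 strand. Of the 72 lower genes, 43 had a promoter entry, and Ccl2 and Cxcl5 are among those without one. Of these 43 genes, 7 held a match on that strand (16.3%), against 1 of 23 higher genes (4.35%) and 1552 of all 27025 genes with a promoter (5.74%). The sites of 2 chemokine genes, of 2 genes of NF-κB inhibitors and of the cytokine gene Lif are shown, 5′ to 3′ with 15 bases on each side and the site in capitals, because these 5 genes passed the test and are described by their lists. Cxcl2 and Cxcl3 hold the same 10 bases, 97 and 73 bases upstream of their starts.
Cxcl2, chr5:90903787-90903826, plus strand: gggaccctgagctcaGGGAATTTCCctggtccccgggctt
Cxcl3, chr5:90786013-90786052, plus strand: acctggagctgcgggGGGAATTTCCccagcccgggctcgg
Tnip1, chr11:54962974-54963013, minus strand: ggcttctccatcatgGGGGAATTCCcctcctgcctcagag
Nfkbie, chr17:45555579-45555618, plus strand: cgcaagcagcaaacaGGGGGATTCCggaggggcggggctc
Lif, chr11:4257375-4257414, plus strand: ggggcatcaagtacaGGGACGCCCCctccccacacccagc

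The site of Tnip1 lies 58 bases, that of Nfkbie 106 bases and that of Lif 178 bases upstream of the start. The remaining matches among the lower genes were in Tnfrsf9 and in Gm8267, and the match among the higher genes was in Fzd5. The Snail-type E-box, written CACCTG or CAGGTG, was in 9.3% of the lower promoters, 26.1% of the higher promoters and 19.4% of all promoters. Any E-box of the form CANNTG, which includes the former, was in 67.4%, 56.5% and 69.3%. The number of genes behind these shares is small, and a match describes the letters only.

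Several genes from the list of NF-κB feedback inhibitors and IκB proteins fell. Of 14 feedback inhibitors and IκB proteins, 7 fell and 0 rose, with a median log2 difference of -1.20 for sh2 and -1.12 for sh1. In 11 of the 14 both sh2 arrays were under all 3 controls (10.7% of clusters with 1 symbol and 8.95% of all clusters). Nfkbiz, which encodes the nuclear IκBζ, had log2 signals of 8.47, 8.52 and 8.40 in the controls and 6.10 and 6.33 with sh2. It fell by 2.25 in log2 signal (standard error 0.11, adjusted p = 0.0203). Ier3, an early response gene induced by stress and cytokines, had 13.41, 13.34 and 13.38 in the controls and 11.20 and 11.52 with sh2, and fell by 2.02 (standard error 0.10, adjusted p = 0.0203). The groups are wide apart in both genes. Zc3h12a, which encodes Regnase-1, an RNase that degrades inflammatory transcripts, had 8.145, 7.997 and 7.831 in the controls and 6.422 and 6.622 with sh2, and fell by 1.47 (standard error 0.12, adjusted p = 0.0305). Nfkbid, which encodes IκBNS, fell by 0.73 (standard error 0.06, adjusted p = 0.0302).

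The other 3 that passed are named after their values were seen. Nfkbia, which encodes IκBα, the main cytoplasmic inhibitor, had 13.09, 13.03 and 12.86 in the controls and 10.81 and 11.34 with sh2, a log2 difference of -1.92 (standard error 0.19, adjusted p = 0.0391). The sh2 arrays differ more from each other than the controls do, and both lie under every control. Tnip1, which encodes the A20-binding protein ABIN-1, fell by 1.38 (standard error 0.12, adjusted p = 0.0327), and Nfkbie, which encodes IκBε, by 1.03 (standard error 0.11, adjusted p = 0.0404). Tnfaip3, which encodes the deubiquitinase A20, had a log2 difference of -1.43 and its partner gene Tnip3 one of -1.37, and neither passed (adjusted p = 0.0517 and 0.0512).

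The genes of the NF-κB subunits and their kinases gave few calls. Of 15 subunits and IKK kinases, 2 fell and 0 rose, with a median log2 difference of -0.03. Ikbke, which encodes the non-canonical kinase IKKε, had 10.07, 10.15 and 9.84 in the controls and 7.70 and 7.84 with sh2, and fell by 2.25 (standard error 0.10, adjusted p = 0.0203). Relb fell by 0.41 (standard error 0.05, adjusted p = 0.0451). Rela, which encodes p65 and is named after its values were seen, had 14.35, 14.35 and 14.37 in the controls and 14.35 and 14.40 with sh2 (adjusted p = 0.780). Of 22 other NF-κB targets, 3 fell and 0 rose with a median of -0.13, among them Sele and the apoptosis inhibitor gene Birc3 (log2 difference -0.67, standard error 0.04, adjusted p = 0.0227). Nfkbiz, Ier3, Zc3h12a, Nfkbid, Nfkbia, Tnip1, Nfkbie, Ikbke, Relb and Birc3 all lost their calls when control replicate 1 or 2 or sh1 replicate 1 or 2 was left out, with an adjusted p between 0.070 and 0.158. Nfkbid, Nfkbia, Nfkbie and Relb also did not pass without control replicate 3 (up to 0.130), Nfkbid, Nfkbie and Relb without sh2 replicate 2 (up to 0.099), and Nfkbie and Relb without sh2 replicate 1 (up to 0.079).

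Sele, Gpr149, Havcr2, Gfra2 and Cp, which encode surface or secreted proteins, were also among the lower genes. Sele, which encodes E-selectin, the adhesion molecule on which leukocytes roll, had log2 signals of 10.68, 10.80 and 10.44 in the controls and 7.26 and 7.83 with sh2. It fell by 3.09 in log2 signal (standard error 0.21, adjusted p = 0.0255). Gpr149, an orphan G protein-coupled receptor gene, had 7.95, 8.05 and 7.85 in the controls and 4.33 and 4.64 with sh2, and fell by 3.47 (standard error 0.12, adjusted p = 0.0135). With sh2 the mean of 4.49 was below the median of the negative controls, which leaves the size of this fall open to doubt. Havcr2, which encodes the checkpoint receptor TIM-3, had 10.81, 10.92 and 10.71 in the controls and 8.27 and 8.83 with sh2, a log2 difference of -2.26 (standard error 0.19, adjusted p = 0.0305). In none of these genes did the groups overlap. Gfra2, which encodes the neurturin receptor GFRα2, fell by 2.12 (standard error 0.11, adjusted p = 0.0203). Cp, which encodes the copper-carrying ferroxidase ceruloplasmin, had 10.32, 10.65 and 10.22 in the controls and 8.52 and 8.15 with sh2, a log2 difference of -2.06 (standard error 0.17, adjusted p = 0.0308).

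Several enzyme genes fell on the same arrays. Wdyhv1, which encodes a deamidase of N-terminal glutamine, had log2 signals of 11.53, 11.55 and 11.55 in the controls and 8.79 and 9.13 with sh2, and fell by 2.58 (standard error 0.11, adjusted p = 0.0203). Gdpd5, a glycerophosphodiester phosphodiesterase gene, fell by 2.08 (standard error 0.12, adjusted p = 0.021), and Neurl3, an E3 ubiquitin ligase gene, by 2.10 (standard error 0.18, adjusted p = 0.0328). Fbxo32, which encodes the muscle atrophy ligase atrogin-1, had 8.53, 8.63 and 8.31 in the controls and 6.57 and 6.67 with sh2, and fell by 1.87 (standard error 0.10, adjusted p = 0.0203). Aldh3a1, an aldehyde dehydrogenase gene, had 9.26, 9.54 and 9.25 in the controls and 7.55 and 7.62 with sh2, and fell by 1.77 (standard error 0.10, adjusted p = 0.0203). The predicted gene Gm8995 fell by 2.27 (standard error 0.17, adjusted p = 0.030) to an sh2 mean of 4.53, under the negative control median. Sele, Gpr149, Havcr2, Gfra2, Cp, Wdyhv1, Gdpd5, Neurl3, Fbxo32 and Gm8995 lost their calls when control replicate 1 or 2 or one of the sh1 arrays was left out, with an adjusted p between 0.069 and 0.124, and Aldh3a1 when control replicate 1 (0.085) or one of the sh1 arrays (0.101) was left out. Cp, Neurl3, Havcr2 and Gm8995 also did not pass without control replicate 3 (up to 0.067), and Cp, Neurl3 and Gm8995 without sh2 replicate 2 (up to 0.054).

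Some growth factor and cytokine genes fell as well. Of 17 myeloid growth factors and members of the IL-6 family, 4 fell and 0 rose, with a median log2 difference of -0.03. Csf1, the macrophage growth factor gene, had log2 signals of 11.39, 11.40 and 11.33 in the controls and 10.06 and 10.44 with sh2, and fell by 1.12 (standard error 0.14, adjusted p = 0.0469). Lif, a cytokine gene of the IL-6 family, had 10.84, 10.79 and 10.57 in the controls and 9.58 and 9.89 with sh2, and fell by 1.00 (standard error 0.13, adjusted p = 0.0499). Tgfb1 fell by 0.44 (standard error 0.05, adjusted p = 0.0434). Csf3, which encodes G-CSF, had a log2 difference of -0.75 (standard error 0.05, adjusted p = 0.0255), but both of its means, 4.89 and 4.14, are under the negative control median. Of 19 interleukins and receptors, Il6st, which encodes the shared receptor gp130, fell by 0.13 (adjusted p = 0.0376) and 18 did not pass. In the Toll-like receptor pathway, with 18 genes, Tlr3, the sensor of double-stranded RNA, fell by 0.50 (adjusted p = 0.0305) and the kinase gene Irak2 by 0.33 (adjusted p = 0.0404). Among the 14 genes of complement and the acute phase, Cp and the complement protease gene C1rb (log2 difference -0.52, adjusted p = 0.0242) fell. The count leaves out a lower cluster with no symbol in the annotation used, TC1700002352.mm.1, which is described with the other such clusters. When control replicate 1 or 2 or one of the sh1 arrays was left out, Csf1, Lif, Tgfb1, Csf3, Il6st, Tlr3, Irak2 and C1rb all lost their calls (adjusted p between 0.085 and 0.170). Csf1, Lif, Tgfb1 and Il6st also did not pass without control replicate 3 (up to 0.128), Lif, Tgfb1, Irak2 and Il6st without sh2 replicate 2 (up to 0.0997), and Lif, Tgfb1 and Irak2 without sh2 replicate 1 (up to 0.0607).

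**Figure D3:**
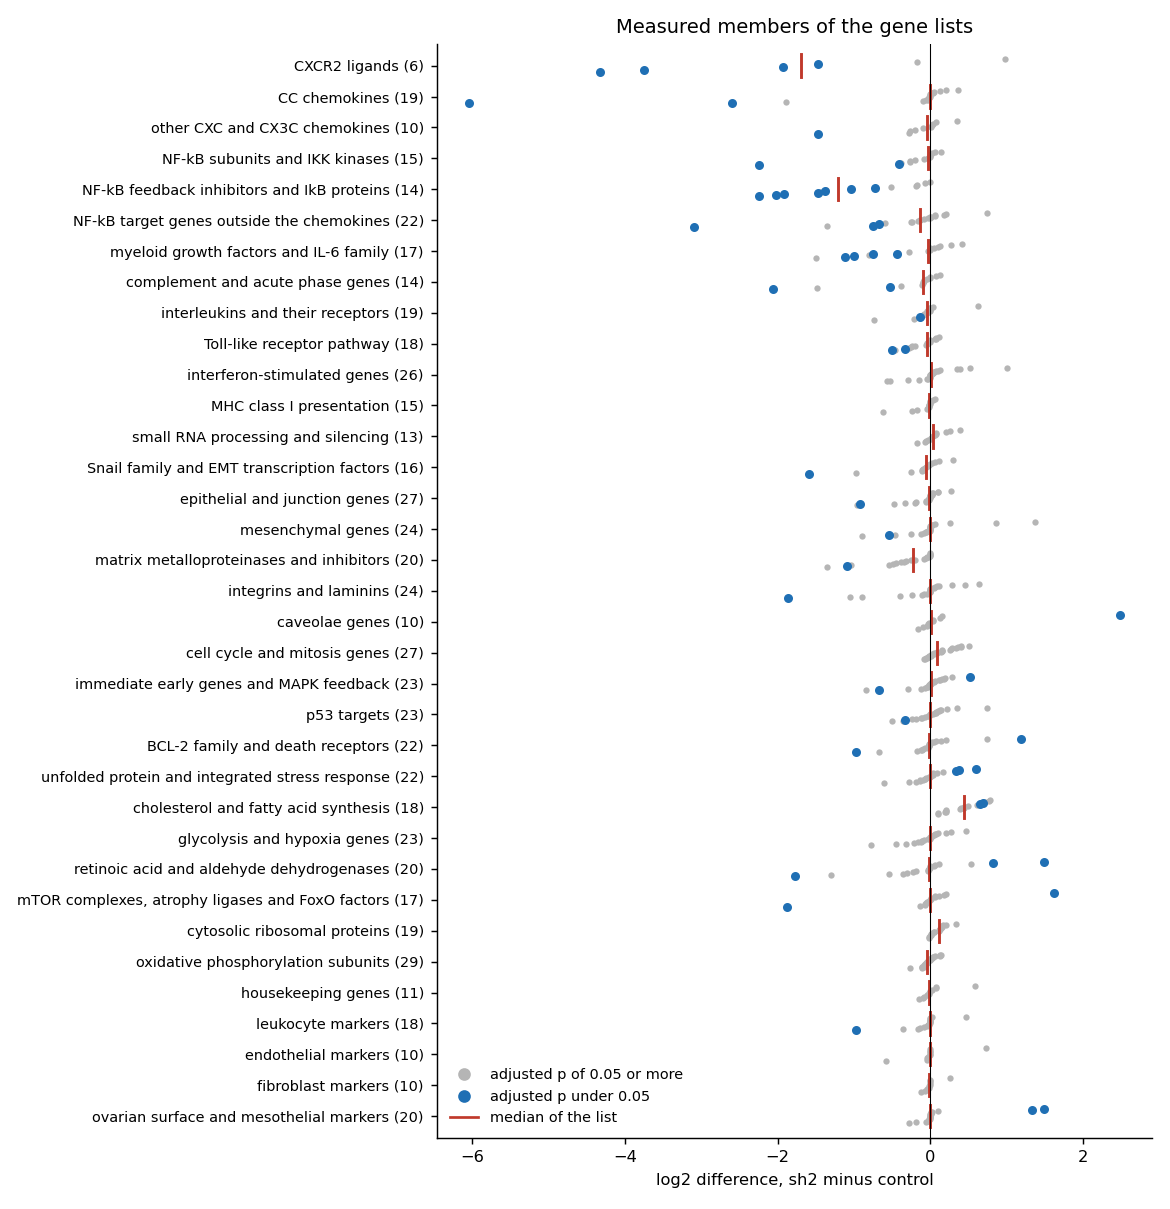
Log2 difference of sh2 minus control for each measured gene (points) of 35 gene lists, blue where the adjusted p is under 0.05 and gray otherwise, with the median of each list as a red mark and the number measured in parentheses. The medians of the CXCR2 ligands, -1.70, and of the NF-κB feedback inhibitors and IκB proteins, -1.20, lie farthest under 0. The median of the cholesterol and fatty acid synthesis genes, 0.44, lies farthest above it.

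A run of predicted genes on chromosome 14 was lower as well. Of the 72 genes lower by 2-fold, 14 are on chromosome 14, out of 1216 genes measured there (1.15%), and none of the 29 higher genes is. Chromosome 11 held 11 of the lower genes, out of 2143 measured (0.513%). Apart from Gfra2 and 1700024B05Rik, the lower genes on chromosome 14 are 12 genes known by clone or model names. Examples are Gm7995 (log2 difference -1.65), Gm8065 (-1.52), 1700049E17Rik1 (-1.49) and Gm9732 (-1.42), all named after their values were seen. Such models can be near-identical copies of each other whose probes may share a signal, so their number is not a number of independent genes. 1700024B05Rik had log2 signals of 8.92, 8.93 and 9.06 in the controls and 6.89 and 6.94 with sh2, a log2 difference of -2.06 (standard error 0.05, adjusted p = 0.00389), and passed without any 1 array at adjusted p up to 0.048. Gm7995, Gm8065, 1700049E17Rik1 and Gm9732 lost their calls when control replicate 1 or 2 was left out (adjusted p between 0.070 and 0.115), and all but Gm7995 when one of the sh1 arrays was (0.089 to 0.104). Fas, the death receptor gene, is also named after its values were seen, because its clusters disagree. One had 7.533, 7.748 and 7.342 in the controls and 6.009 and 6.002 with sh2 (log2 difference -1.54, standard error 0.12, adjusted p = 0.0302), and the other, which stands for the gene in the lists, had 9.41, 8.73 and 9.58 in the controls and 9.74 and 10.25 with sh2 (0.75, standard error 0.35, adjusted p = 0.562). No direction is given for this gene.

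Fewer genes rose past 2-fold than fell, and they were of several kinds. Cdh9, a type II cadherin gene, had log2 signals of 5.36, 5.10 and 5.15 in the controls and 8.36 and 7.78 with sh2. It rose by 2.87 (standard error 0.19, adjusted p = 0.0255) from a control mean of 5.20, close to the median of the negative controls, which leaves the fold uncertain. Cavin2, which encodes a coat protein of caveolae, the small pits of the plasma membrane, had 11.87, 11.64 and 11.74 in the controls and 14.38 and 14.10 with sh2. It rose by 2.49 (standard error 0.13, adjusted p = 0.0203), a linear fold change of 5.61, and the arrays of the groups are far apart. It was the only one of 10 caveolae genes to pass. Cav1, the gene of the main caveolar protein, had a log2 difference of 0.16 (adjusted p = 0.412) and is named after its values were seen. Crim1, which encodes a membrane protein that binds bone morphogenetic proteins, had 10.73, 10.71 and 10.69 in the controls and 12.44 and 12.33 with sh2, and rose by 1.68 (standard error 0.08, adjusted p = 0.0203). Deptor, which encodes an inhibitor of the mTOR kinase, had 10.36, 10.32 and 10.50 in the controls and 12.06 and 11.96 with sh2, and rose by 1.62 (standard error 0.08, adjusted p = 0.0203). In each of these genes the sh1 arrays were high as well, with log2 differences of 3.03 for Cdh9, 2.36 for Cavin2, 1.55 for Crim1 and 1.46 for Deptor.

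Aldh1a1, which encodes a retinaldehyde dehydrogenase, had log2 signals of 7.002, 7.095 and 7.009 in the controls and 8.533 and 8.528 with sh2, and rose by 1.50 (standard error 0.09, adjusted p = 0.0203). With Aldh3a1 lower and Aldh1a7 higher by 0.82 (adjusted p = 0.0439), 1 of 20 retinoic acid and aldehyde dehydrogenase genes fell and 2 rose. Rapgef5, an exchange factor gene for the small GTPase Rap, rose by 1.78 (standard error 0.13, adjusted p = 0.0294), the ephrin receptor gene Epha4 by 1.42 (standard error 0.14, adjusted p = 0.0381), the scaffold gene Iqgap2 by 1.38 (adjusted p = 0.0294), the sodium pump subunit gene Atp1b1 by 1.31 (adjusted p = 0.0321) and the Wnt receptor gene Fzd5 by 1.23 (adjusted p = 0.0305). Of 22 members of the BCL-2 family and death receptors, Tnfrsf21, which encodes death receptor 6, rose by 1.19 (standard error 0.08, adjusted p = 0.0255) and the TNF receptor gene Tnfrsf1b fell by 0.97 (adjusted p = 0.0364). Of 20 markers of the ovarian surface and mesothelium, Aldh1a1 and the uroplakin gene Upk1b, which rose by 1.33 (adjusted p = 0.0302), passed.

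These calls too needed most arrays. None of Cdh9, Cavin2, Crim1, Deptor, Aldh1a1, Rapgef5, Epha4, Iqgap2, Atp1b1, Fzd5 and Upk1b passed without control replicate 1 or control replicate 2, with an adjusted p between 0.070 and 0.133. With 1 of the sh1 arrays left out, Crim1 and Aldh1a1 passed (adjusted p = 0.036) and the other 9 did not (0.093 to 0.138). Cdh9, Epha4, Iqgap2, Atp1b1 and Upk1b also did not pass without control replicate 3 (0.053 to 0.098), nor Fzd5 without sh2 replicate 2 (0.058). Aldh1a7 lost its call whichever of the 7 arrays was left out (0.078 to 0.152).

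Epithelial and mesenchymal genes gave few calls. Of 27 epithelial and junction genes, 1 fell and 0 rose, with a median log2 difference of -0.01, and of 24 mesenchymal genes, 1 fell and 0 rose, with a median of 0.00. Cdh1, which encodes E-cadherin, had 3.81, 3.86 and 3.81 in the controls and 3.81 and 3.73 with sh2, all under the negative control median (adjusted p = 0.579). Vim, which encodes the mesenchymal filament vimentin, had 17.89, 17.86 and 17.89 in the controls and 17.89 and 17.90 with sh2 (adjusted p = 0.771). These and the next gene are named after their values were seen. Fn1, which encodes fibronectin, had 13.25, 13.39 and 13.09 in the controls and 14.87 and 14.37 with sh2, a log2 difference of 1.38 that did not pass (standard error 0.17, adjusted p = 0.0511), although both sh2 arrays were above every control. The epithelial transcription factor gene Elf3 fell by 0.92 (standard error 0.10, adjusted p = 0.0404), and S100a4, a calcium-binding protein gene used as a mesenchymal marker, fell by 0.54 (standard error 0.06, adjusted p = 0.044). Of 16 EMT transcription factors, 1 fell and 0 rose. This was Klf4, a regulator of epithelial differentiation, with 8.90, 8.72 and 8.76 in the controls and 7.11 and 7.30 with sh2 (log2 difference -1.59, standard error 0.08, adjusted p = 0.0203).

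Proteases and their inhibitors were low more often than they passed. Of 20 metalloproteinases and inhibitors, 1 fell and 0 rose, with a median log2 difference of -0.22. In 11 of the 20 both sh2 arrays were under all controls, against 10.7% of all clusters with 1 symbol. Adamts4, an aggrecan-cleaving protease gene, fell by 1.08 (standard error 0.11, adjusted p = 0.0378). Mmp13, a collagenase gene named after its values were seen, had 16.70, 16.90 and 16.44 in the controls and 15.66 and 15.62 with sh2, a log2 difference of -1.04 that did not pass (adjusted p = 0.0551). Of 24 integrins and laminins, Itga2, which encodes the collagen-binding integrin α2, fell by 1.87 (standard error 0.23, adjusted p = 0.0467). With control replicate 1 or 2 or one of the sh1 arrays left out, Klf4, Elf3, S100a4, Adamts4 and Itga2 lost their calls (adjusted p between 0.070 and 0.164). Elf3, S100a4 and Itga2 also did not pass without control replicate 3 (up to 0.129), Elf3, S100a4 and Adamts4 without sh2 replicate 2 (up to 0.0811), and S100a4 and Adamts4 without sh2 replicate 1 (up to 0.0733).

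The genes of lipid synthesis were higher on the arrays labelled sh2, mostly without passing the test. Of 18 cholesterol and fatty acid synthesis genes, 2 rose and 0 fell, none had a log2 difference under 0, and the median was 0.44 for sh2 and 0.53 for sh1. In 16 of the 18 both sh2 arrays were above all 3 controls (8.60% of clusters with 1 symbol and 10.9% of all clusters). Acaca, which encodes acetyl-CoA carboxylase, the first enzyme of fatty acid synthesis, had log2 signals of 9.80, 9.82 and 9.80 in the controls and 10.55 and 10.45 with sh2, and rose by 0.69 (standard error 0.03, adjusted p = 0.0203). Fasn, which encodes fatty acid synthase, had 12.31, 12.16 and 12.19 in the controls and 12.97 and 12.77 with sh2, and rose by 0.65 (standard error 0.08, adjusted p = 0.0443). The next genes are named after their values were seen. Scd1, which encodes a fatty acid desaturase, had a mean of 15.06 ± 0.10 (SD, n = 3) in the controls and of 15.84 ± 0.40 (SD, n = 2) with sh2, a log2 difference of 0.78 (adjusted p = 0.188). Hmgcs1, an early enzyme gene of the mevalonate pathway, had 12.13, 12.08 and 12.08 in the controls and 12.94 and 12.48 with sh2 (0.61, adjusted p = 0.198), and Lss, which encodes lanosterol synthase, had a log2 difference of 0.77 (adjusted p = 0.107). In Scd1 and Hmgcs1 the sh2 arrays differed from each other more than the controls did. None of the lipid genes passed 2-fold.

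Stress and growth genes gave few calls. Of 22 genes of the unfolded protein and integrated stress response, 3 rose and 0 fell. The endoplasmic reticulum sensor gene Atf6 had a mean of 14.04 ± 0.05 (SD, n = 3) in the controls and of 14.64 ± 0.01 (SD, n = 2) with sh2, and rose by 0.60 (standard error 0.03, adjusted p = 0.0203). Ern1, which encodes the sensor IRE1α, rose by 0.38 (adjusted p = 0.0494) and the serine synthesis gene Psat1 by 0.34 (adjusted p = 0.0365). Of 17 genes of the mTOR complexes, atrophy ligases and FoxO factors, Deptor rose and Fbxo32 fell. Of 23 immediate early and MAPK feedback genes, the phosphatase gene Dusp6 rose by 0.53 (adjusted p = 0.0255) and Dusp10 fell by 0.67 (adjusted p = 0.0323). Of 23 p53 targets, Cdkn1a, which encodes the cell cycle inhibitor p21, fell by 0.32 (adjusted p = 0.0293). Of 27 cell cycle and mitosis genes, 0 passed in limma in either direction, while with no adjustment of p 10 were higher and 0 lower at 0.05, a limit that 5.17% of all clusters with 1 symbol passed as higher and 5.95% as lower. In 12 of the 27 both sh2 arrays were above all controls, against 8.60% of all clusters with 1 symbol. Mki67, the gene of the proliferation marker Ki-67, had 14.67, 14.77 and 14.70 in the controls and 15.32 and 15.13 with sh2, a log2 difference of 0.51 (standard error 0.07, adjusted p = 0.0511). When control replicate 1 or 2 or one of the sh1 arrays was left out, the calls of Acaca, Fasn, Atf6, Ern1, Psat1, Dusp6, Dusp10, Cdkn1a, Tnfrsf21 and Tnfrsf1b were lost (adjusted p between 0.070 and 0.152). Fasn, Psat1, Dusp6 and Dusp10 also did not pass without control replicate 3 (up to 0.129), and Ern1 without sh2 replicate 1 or 2, nor Psat1 or Tnfrsf1b without sh2 replicate 2 (up to 0.123).

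Interferon-stimulated genes, MHC class I genes and genes of small RNA silencing gave no call. This held for 26 interferon-stimulated genes, 15 MHC class I genes and 13 small RNA genes in limma, with median log2 differences of 0.01, -0.01 and 0.04. At an unadjusted p under 0.05, where 5.95% of all clusters with 1 symbol were lower and 5.17% higher, there were 4 lower and 6 higher interferon-stimulated genes, 3 lower and 0 higher MHC class I genes and 0 lower and 2 higher small RNA genes. Markers of other cell types were near the background. Of 18 leukocyte markers, 15 had both means under the negative control median, and 1 passed: Cd68, a lysosomal gene of macrophages that other cells also use, fell by 0.97 (adjusted p = 0.0486) and lost the call whichever of the 7 arrays was left out, with an adjusted p between 0.072 and 0.165. Of 10 endothelial and 10 fibroblast markers 0 passed in limma, and at an unadjusted p under 0.05 there were 1 lower and 1 higher and 0 lower and 1 higher. The 23 glycolysis and hypoxia genes, 19 cytosolic ribosomal proteins, 29 subunits of oxidative phosphorylation and 11 housekeeping genes gave 0 calls in limma, with median log2 differences of 0.00, 0.11, -0.03 and -0.01. Against the same shares, their counts at an unadjusted p under 0.05 were 4, 0, 1 and 0 lower and 2, 3, 1 and 1 higher.

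The hairpins were then set side by side, although both comparisons use the same 3 controls. The genes were chosen for a large difference with sh2, so a like sign and a smaller value with sh1 follow in part from the choice, and nothing is read from them. Over the 72 genes lower by 2-fold the median log2 differences were -1.44 for sh2 and -1.31 for sh1, and over the 29 higher genes they were 1.26 and 1.07. The direct test of sh2 minus sh1 called 0 of 65770 clusters (0%), with a lowest adjusted p of 0.0868. This count rests on all 7 arrays, and became 118 without sh1 replicate 1, 300 without sh1 replicate 2, 2078 without sh2 replicate 1 and 562 without sh2 replicate 2. At an unadjusted p under 0.05 in limma, 2463 of the 65770 clusters were higher and 1487 lower with sh2. Among so many clusters a large number pass this limit without any true difference, so these counts are no measure of how many differ. Among the higher genes, the snoRNA Gm24095 had log2 differences from control of 1.71 with sh2 and 0.89 with sh1, and the long non-coding RNA Gm9929 had 1.63 and 0.94. The uroplakin gene Upk1b had 1.33 with sh2 and 1.80 with sh1, the actin-binding protein gene Pof1b 1.27 and 1.69, and Rassf9, of the Ras association domain family, 1.30 and 1.78.

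A few genes stood higher with sh2 than with sh1 by amounts that did not pass the adjusted test. Mdn1, which encodes a large ATPase of ribosome assembly, had log2 signals of 8.56, 8.62 and 8.71 in the controls, 9.13 and 9.20 with sh1 and 9.69 and 9.67 with sh2. The arrays fall into an order of control, sh1 and sh2 without overlap. Mdn1 rose by 1.05 against control (standard error 0.05, adjusted p = 0.0203), and the difference of sh2 minus sh1 was 0.51 (95% interval from 0.37 to 0.66, adjusted p = 0.278). Fat1, an atypical cadherin gene, and Malat1, a long nuclear RNA, are named after their values were seen. Fat1 had 11.35, 11.55 and 11.49 in the controls, 11.98 and 11.98 with sh1 and 12.63 and 12.52 with sh2, a difference between the hairpins of 0.60 (95% interval from 0.40 to 0.80, adjusted p = 0.349). Malat1 had 14.50, 14.73 and 14.80 in the controls, 15.18 and 15.28 with sh1 and 15.89 and 15.77 with sh2, with a difference between the hairpins of 0.60 (adjusted p = 0.386). In the opposite direction, Plet1, which encodes a surface protein, fell by 0.71 with sh2 and had a log2 difference of -0.44 with sh1 (difference -0.27, adjusted p = 0.263). Mdn1, Fat1, Malat1 and Plet1 lost their calls against control when control replicate 1 or 2 or one of the sh1 arrays was left out (adjusted p between 0.056 and 0.124), as did Malat1 when control replicate 3 (0.056) or sh2 replicate 2 (0.061) was left out.

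**Figure D4:**
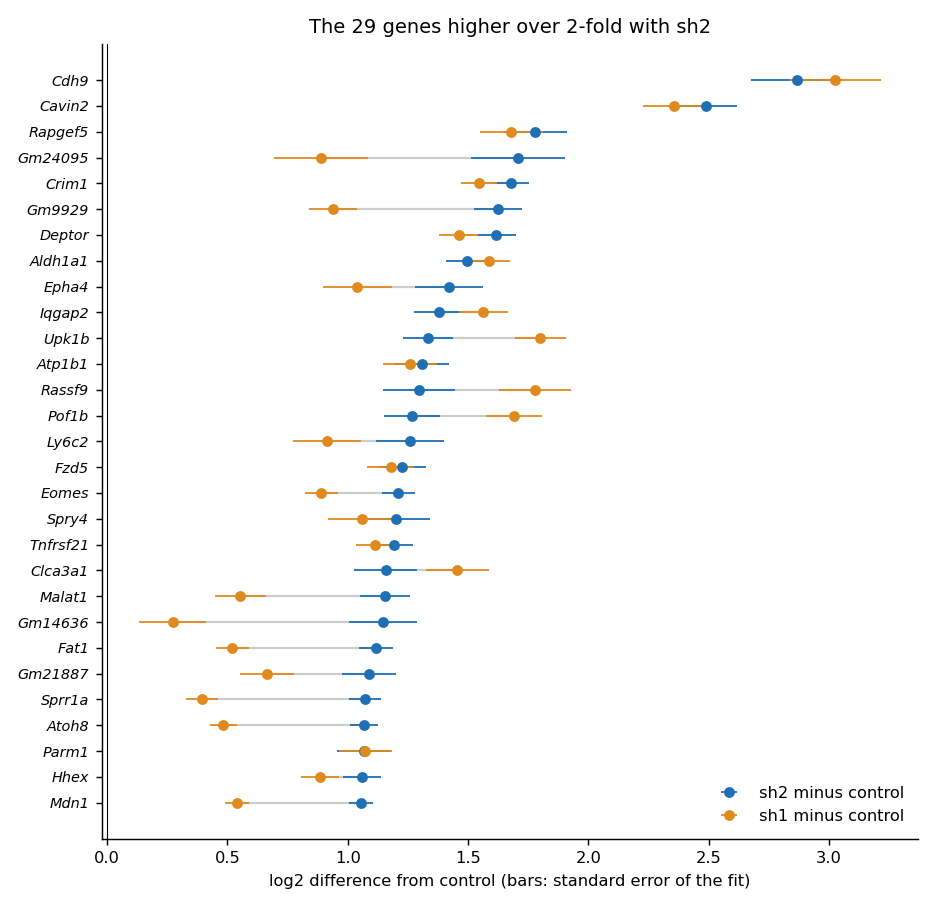
Log2 difference against control (horizontal axis) with its standard error (bars) for the 29 genes higher by 2-fold on the arrays labelled sh2, with sh2 and sh1 as separate points for each gene. The genes were chosen on sh2 and the controls are shared. The points lie close together for Cavin2 (2.49 and 2.36) and apart for Mdn1 (1.05 and 0.54).

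The higher genes were also long genes. Over the 175 protein-coding genes that rose at any fold, the median genomic span in RefSeq was 70.2 kb, against 18.4 kb over 19047 measured protein-coding genes and 28.0 kb over the 216 that fell. A span over 100 kb was found for 34.9%, 11.7% and 12.5% of them. The order was the same among bright genes. For those with a control mean above the 95th percentile of the negative controls, the median spans were 74.2 kb for the genes that rose, 29.3 kb for those that fell and 27.3 kb for all. These are descriptions of genes, which are not independent replicates, and the part of RNA length or quality in them was not tested.

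Clusters without a symbol made up most of the higher calls, and many of them are 1 measurement. The 192 clusters higher by 2-fold held 37 distinct sets of values over the 7 arrays, and 4 sets were shared by 63, 35, 30 and 18 clusters. The set shared by 63 clusters had log2 signals of 7.675, 7.662 and 8.003 in the controls, 8.173 and 8.214 with sh1 and 8.855 and 9.037 with sh2, a log2 difference of 1.17 (standard error 0.13, adjusted p = 0.0404). The set shared by 35 had 7.03, 6.86 and 6.74 in the controls, 7.41 and 7.41 with sh1 and 7.89 and 8.13 with sh2. In both sets the sh1 arrays lie between the controls and the sh2 arrays. Of the 192 clusters, 9 had a control mean above the 95th percentile of the negative controls. When clusters with equal values were counted once before the fit and the adjustment was repeated, 38 clusters without a symbol were higher and 14 lower. The 14 lower clusters, and the 73 lower and 29 higher clusters with 1 symbol, all had values of their own.

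The largest differences among clusters without a symbol in the annotation used are given by cluster number. The study's own gene table names TC1700002352.mm.1 as C3, the gene of complement component C3, and TC1600001570.mm.1 as the predicted gene Gm23306. TC1600001570.mm.1 had log2 signals of 6.53, 6.48 and 6.59 in the controls and 3.93 and 3.98 with sh2, and fell by 2.57 (standard error 0.04, adjusted p = 0.000928) to a level under the negative control median. TC1700002352.mm.1 fell by 2.41 (standard error 0.16, adjusted p = 0.0255). TC0800003101.mm.1 had 9.99, 9.91 and 10.94 in the controls and 13.89 and 13.91 with sh2, with 13.70 and 13.58 in the sh1 arrays, and rose by 3.62 (standard error 0.34, adjusted p = 0.0376). TC1300000751.mm.1 rose by 1.69 (standard error 0.20, adjusted p = 0.043), with a difference of 0.83 for sh1.

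The negative control probes moved with the hairpin label. Their median was 4.83, 4.85 and 4.86 in the controls, 4.92 and 4.99 with sh1 and 5.12 and 5.20 with sh2, while the median of all clusters stayed between 4.51 and 4.56. Over the 5222 negative controls the median log2 difference was 0.27 for sh2 and 0.10 for sh1. In 23.2% of them both sh2 arrays were above all 3 controls, against 10.9% of all clusters, 8.60% of clusters with 1 symbol and 12.9% of clusters without one. Of the 5222 negative controls, 0 were higher and 1 was lower past the test, and at an unadjusted p under 0.05 there were 505 higher and 67 lower. Of all clusters, 6.48% were higher and 4.21% lower at that unadjusted limit. Counts of higher clusters near this level, and those without a symbol first, therefore stand beside a background that rose in the same arrays, and its part in them was not tested.

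**Figure D5:**
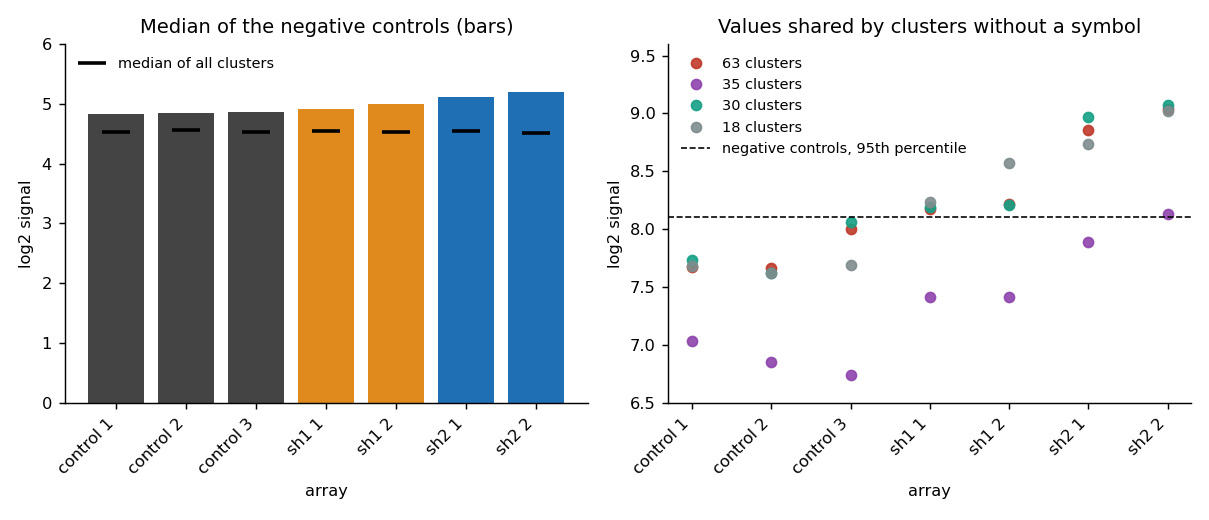
Left, the median log2 signal of the 5222 negative controls on each array (bars, from 0) with the median of all clusters (black lines); right, the log2 signal on each array of the 4 sets of values shared by 63, 35, 30 and 18 clusters without a symbol, with the 95th percentile of the negative controls as a dashed line. The negative control bars stand at 4.83 to 4.86 in the controls and at 5.12 and 5.20 with sh2, and the shared values are highest on the sh2 arrays.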

How the data were processed

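RNA of 7 HM-1 cultures was measured on Affymetrix Mouse Transcriptome 1.0 arrays. The authors deposited 1 table of normalized log2 signals per probe set, made with the Affymetrix Expression Console. Neither its version nor the background correction and normalization steps could be taken from the labels or the paper. The values were used as deposited. Control probe sets were kept out of the tests. A gene was named only from a cluster with exactly 1 symbol, and the brightest cluster stands for a gene with several.

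All 65770 clusters were fitted in limma 3.58.1 (R 4.3.3) with 3 groups, by lmFit and eBayes with no covariate (4 residual degrees of freedom). The contrasts were sh2 minus control and sh2 minus sh1, two-sided. The p-values of all clusters were adjusted by Benjamini-Hochberg, and an adjusted p under 0.05 was called. Summaries were made in Python 3.11.15 with pandas 2.3.3, and the fit was tested on simulated data. Array-based signals carry no read depth, and the level of the negative controls serves as background. Promoters and spans came from RefSeq (GRCm38.p6).

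Genes named were the 15 lower and 15 higher with the largest difference past 2-fold with both sh2 values outside the control range, the 8 of each kind above the negative control 95th percentile, up to 4 passing members of each of 35 lists (or the 2 brightest), and the 3 on each side with the smallest p between hairpins. Genes outside this rule are given as named after their values were seen. The members and lists were chosen with earlier results of these data known. Alternatives covered the samples, test, scaling, filters, floor, array weights and replicate block. A one-way analysis of variance, the kind of test the study names, was run as an alternative on the control and sh2 arrays only. The study's test also held the sh1 arrays, so the counts are not a repeat of it. Limits were an unadjusted p under 0.0005 and, after Benjamini-Hochberg adjustment, 0.05. The study labels its values as p-values of the analysis of variance and names no adjustment.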

Additional observations from a re-analysis of the deposited data

Results flagged for a closer look

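The negative control probes, which are outside the comparison of genes, were higher on the arrays labelled sh2 by a median of 0.27 on the log2 scale. Opposite sides of the controls were looked for only among the 98 genes or clusters named by rule. For 3 of these genes the 2 hairpins lay on opposite sides, and the difference between the hairpins did not pass the adjusted test. Gm10925 had log2 signals of 18.72, 18.73 and 18.73 in the controls, 18.59 and 18.59 with sh1 and 18.75 and 18.75 with sh2, a difference of sh2 minus sh1 of 0.16 (adjusted p = 0.213 in limma). Gm5937 had 15.58, 15.58 and 15.59 in the controls, 15.70 and 15.75 with sh1 and 15.49 and 15.45 with sh2, a difference of -0.26 (adjusted p = 0.233). Pisd-ps3 had 8.92, 8.92 and 8.95 in the controls, 8.86 and 8.82 with sh1 and 9.04 and 9.04 with sh2, a difference of 0.20 (adjusted p = 0.273). These genes were selected for a small p between the hairpins, and under centring on the negative controls Gm10925 and Pisd-ps3 changed sign against control.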

How the results depend on the processing

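Counts are given as lower and higher past 2-fold for all clusters, then for clusters with 1 symbol, then for those without a symbol, then at any fold for all clusters. With only the 5 control and sh2 arrays they were 5 and 5, 4 and 3, 1 and 2, and 7 and 7. With array weights they were 45 and 23, 38 and 16, 6 and 7, and 89 and 103. With values under the negative control 95th percentile raised to it they were 11 and 9, 11 and 7, 0 and 2, and 35 and 144. With centring on the negative controls they were 290 and 87, 215 and 21, 58 and 66, and 50048 and 926. A one-way analysis of variance on the control and sh2 arrays alone, at an unadjusted p under 0.0005, gave 23 and 12, 17 and 8, and 6 and 4. After Benjamini-Hochberg adjustment it gave 0 and 1, 0 and 0, and 0 and 1. With equal values counted once, an alternative chosen after seeing the data, 70 clusters were higher, 38 of them without a symbol, and 343 at any fold. Among clusters with 1 symbol tested alone 29 were higher past 2-fold, and 241 lower and 197 higher at any fold. The 40th percentile filter gave 506 and 824 at any fold, median centring 853 higher, and quantile normalization 138 lower past 2-fold, 112 of them with 1 symbol, and 729 lower at any fold. With a variance trend and robust moderation the counts stayed within 1.5 times, but 2 negative controls were lower and 6 higher.

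The replicate numbers were checked for pairing. Same-numbered arrays were correlated after their group means were taken off. The values were -0.07 and -0.14 between control and sh1, -0.10 and -0.21 between control and sh2, and 0.16 and 0.16 between sh1 and sh2. In a group of 2 arrays these deviations are mirror images, so the last 2 values are 1 value by construction. Arrays with unlike numbers were not compared, so this check cannot tell whether same-numbered arrays belong together. With the replicate block, 1 cluster was lower and 0 higher past 2-fold and at any fold, 1 and 0 with 1 symbol, 0 and 0 without a symbol, 0 negative controls and 0 clusters between the hairpins.

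Without 1 array in turn, 5 to 80 clusters were lower and 1 to 221 higher past 2-fold, 4 to 64 and 0 to 39 with 1 symbol, 1 to 12 and 1 to 179 without a symbol, and 5 to 1881 and 2 to 1744 at any fold. The direct comparison of the hairpins, with 0 calls on all arrays, gave 118 without sh1 replicate 1, 300 without sh1 replicate 2, 2078 without sh2 replicate 1 and 562 without sh2 replicate 2, and 0 to 2078 in all. Negative controls gave 0 to 2 lower. Where a group is left with 1 array, it is assumed to vary like the others.

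Over the named genes past the test, 1456 alternatives were run, of which 732 passed, 723 kept the direction without passing and 1 reversed. Under centring on the negative controls the log2 difference of sh2 minus control became -0.29 for Gm10925, -0.035 for Hsd17b7, -0.25 for Snai1, -0.29 for Actb, -0.27 for Bst2, -0.28 for Snai3, -0.23 for Pkm, -0.31 for Canx, -0.30 for Rps7, -0.24 for Drosha, -0.31 for Atp5a1 and -0.20 for Pisd-ps3. That setting shifts every gene by the rise of the negative controls. For the other settings the cause was not tested. The few arrays and the closeness of many signals to the negative controls limit what can be called.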
